A study of Mus musculus with 11 samples.

Results

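The Hoxa cluster is a run of homeobox genes on one strand of mouse chromosome 6. Its members Hoxa2, Hoxa3, Hoxa4, Hoxa5, Hoxa6, Hoxa7, Hoxa9, Hoxa10 and Hoxa11 were read by symbol, 9 of the 37991 genes counted, from RNA-Seq of sorted bone marrow hematopoietic stem cells (HSC). The genes span chr6:52112350-52196213 of the build NCBIM37, all on the minus strand. They hold 10 rows of the table, since Hoxa3 has 2 identifiers, and 8 rows had at least 1 count. HSC were compared between 3 genotypes in C57BL/6 mice aged 8 weeks, with 4 libraries of control, 4 of NA10hd and 3 of NV, each from an aliquot of 1000 sorted cells. NA10hd mice carried LSL-NA10hd, a fusion of NUP98 with the homeodomain of HOXA10, tagged with 3xFlag and followed by an IRES and tdTomato, inserted at ROSA26. NV mice carried LSL Nras G12D/+, an oncogenic allele of Nras at its own locus. In both genotypes a stop cassette was removed by Vav-Cre, which is active in blood cells in general and not in HSC alone. Controls are wild type in the labels and littermates in the study's methods, and for other experiments of the study littermate controls are given as carrying the unrecombined NA10hd allele, so the exact genotype of the control libraries here is uncertain. The sort took cells negative for lineage antigens, CD48 and CD135 and positive for c-Kit, Sca1 and CD150. The study calls the libraries of a genotype biological replicates, and whether each aliquot came from a mouse of its own is not given in the sources used here, so p-values measure the spread between these libraries.

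Hox genes encode transcription factors that bind DNA through the homeodomain, usually together with a PBX or MEIS partner. Within a cluster the genes lie in the order in which they act along the body axis, and neighbouring genes are held active by MLL complexes and silent by Polycomb complexes. In blood formation the Hoxa genes are most active in stem and early progenitor cells and decline with differentiation, Hoxa9 is needed for full HSC function, and leukemias with MLL fusions or NUP98 fusions often keep Hoxa9 and Hoxa10 high. The members fall into the posterior genes Hoxa9, Hoxa10 and Hoxa11, related to Abdominal-B of the fly, the central genes Hoxa5, Hoxa6 and Hoxa7, and the anterior genes Hoxa2, Hoxa3 and Hoxa4.

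The homeobox, the 180 bases that encode the homeodomain, is shown for Hoxa10, the gene whose kind of homeodomain the fusion carries, and for Hoxa5, the member that passed the test in both comparisons with NV. Sequences are in the sense of the gene from NCBIM37, 5′ to 3′, and capitals mark bases that differ from Hoxa10 at the same position. The stretches are chr6:52182553-52182732 for Hoxa10 and chr6:52152631-52152810 for Hoxa5, both on the minus strand and in exon 2 of the transcript used.
Hoxa10: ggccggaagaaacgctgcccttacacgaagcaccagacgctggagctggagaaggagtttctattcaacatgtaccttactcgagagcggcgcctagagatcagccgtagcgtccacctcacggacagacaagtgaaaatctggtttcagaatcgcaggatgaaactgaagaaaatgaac
Hoxa5: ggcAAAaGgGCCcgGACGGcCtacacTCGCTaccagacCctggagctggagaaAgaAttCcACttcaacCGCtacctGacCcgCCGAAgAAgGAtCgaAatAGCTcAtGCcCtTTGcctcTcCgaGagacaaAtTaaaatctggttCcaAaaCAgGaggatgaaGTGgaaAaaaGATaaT
The Hoxa5 homeobox is 61.7% identical to that of Hoxa10. The fusion holds a HOXA10 homeobox and has no row of its own, and whether its reads were counted on the mouse Hoxa10 row was not tested.

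Promoters are shown for Hoxa9 and Hoxa5, members that passed the test between NA10hd and NV, and for Hoxa2, the one member with a letter match to both motifs searched. They are the 250 bases before the start in RefSeq (GRCm38.p6), on the minus strand at chr6:52227371-52227620, chr6:52204588-52204837 and chr6:52164832-52165081, and 8 of the 9 members had an entry.
Hoxa9: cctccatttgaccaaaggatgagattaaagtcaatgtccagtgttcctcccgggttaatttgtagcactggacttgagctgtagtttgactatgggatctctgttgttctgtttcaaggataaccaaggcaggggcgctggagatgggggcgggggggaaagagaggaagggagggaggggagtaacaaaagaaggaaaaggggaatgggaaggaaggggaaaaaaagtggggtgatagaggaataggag
Hoxa5: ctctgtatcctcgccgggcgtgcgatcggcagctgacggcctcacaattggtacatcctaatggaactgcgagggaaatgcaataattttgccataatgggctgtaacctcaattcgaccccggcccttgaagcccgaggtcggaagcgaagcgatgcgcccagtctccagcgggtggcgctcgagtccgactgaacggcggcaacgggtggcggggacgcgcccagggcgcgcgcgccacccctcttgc
Hoxa2: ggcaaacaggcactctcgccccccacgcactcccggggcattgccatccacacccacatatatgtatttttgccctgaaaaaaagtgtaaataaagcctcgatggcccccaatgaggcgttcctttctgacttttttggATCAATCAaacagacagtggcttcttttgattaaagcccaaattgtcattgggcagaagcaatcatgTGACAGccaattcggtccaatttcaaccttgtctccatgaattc
Capitals mark matches on either strand to TGATNNAT, a site for a HOX protein with PBX, and to TGACAG, a site for MEIS. The first was found in 7.68% and the second in 15.9% of 32851 promoters of the same length. Hoxa2 held 1 match to each, Hoxa3 held 1 match to the MEIS letters, and neither was found in the windows of the other 6 members with an entry. The Hoxa5 window had 63.6% G and C with 28 CpG, and the Hoxa9 window 49.6% with 3 CpG.

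Total counts ran from 5464815 to 14283008 per library. All NA10hd libraries had fewer genes with counts (13859 to 15455) than all control (15485 to 15899) and NV libraries (15683 to 15900). Pairs of NA10hd libraries also differed more in their counts over genes, with chi-square values divided by their degrees of freedom of 39.7 to 62.3 against 6.65 to 24.6 in control and 15.1 to 22.4 in NV, and the part of either in the Hoxa values was not tested. NA10hd replicate 4 stood apart: it had the fewest genes with counts, and it alone held Xist, the transcript of the inactive X chromosome, and no Y-linked counts, while NA10hd replicates 1 to 3 and control replicates 1 and 4 held Y-linked and no Xist counts, and the other control and all NV libraries held both. The mix of Xist and Y-linked counts thus differed between genotypes, and no NA10hd and NV libraries shared a mix. It is called the sex mix below, though the sex of the mice is not given in the sources used here. A library was classed by the presence of any such count, however low. All 10 markers of the sorted HSC population had counts (control libraries summed to 2330.0 to 2946 CPM, NA10hd libraries to 2601 to 3261 CPM and NV libraries to 2049 to 2516 CPM), among them Kit, Ly6a, which encodes Sca1, and Slamf1, which encodes CD150. The 10 lymphoid markers summed to 45.7 to 70.7 CPM over control libraries, 44.7 to 104 CPM over NA10hd libraries and 39.6 to 51.8 CPM over NV libraries, most of it from Cd79b, while Cd2, Cd3e, Cd3g, Dntt, Il7r and Pax5 were at 0 counts in all libraries. Mesenchymal stromal markers, among which Col3a1, Dcn and Lum were at 0, summed to between 3.96 and 26.1 CPM. Against control, Nras in NV differed by 0.41 on the log2 scale (standard error 0.14, edgeR adjusted p = 0.124) and Nup98 in NA10hd by 0.10 (standard error 0.47, edgeR adjusted p = 0.954), on rows that do not separate the introduced alleles.

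The summed level of the Hoxa genes was highest in NA10hd HSC and lowest in NV HSC. Levels in CPM are counts scaled to a common library size, the library total times its TMM factor. The 8 members with counts summed to 342, 280.1, 349 and 348 CPM in control replicates 1 to 4. They summed to 596, 575, 572 and 549.7 CPM in NA10hd and to 284, 265 and 282 CPM in NV. Every NA10hd library lay above every other library, and the control and NV ranges overlapped through control replicate 2 alone. Control averaged 329.8 ± 33.3 CPM (SD, n = 4), NA10hd averaged 573 ± 18.8 CPM (SD, n = 4) and NV averaged 277 ± 10.4 CPM (SD, n = 3). As a share of all counts, without the scaling, the genes took 0.0278% to 0.0360% of a control library, 0.0508% to 0.0593% of an NA10hd library and 0.0274% to 0.0293% of an NV library. In a bulk sample, fewer cells that express a gene and less of its RNA per cell cannot be told apart.

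The order of the members was read per kb of merged exon, since longer transcripts give more reads, and it was nearly alike in the 3 genotypes. Hoxa9 was the highest, where control libraries averaged 46.2 ± 4.23, NA10hd libraries 85.2 ± 7.54 and NV libraries 42.4 ± 0.994 CPM per kb (SD, with 4, 4 and 3 libraries). Hoxa5 followed at 38.9 ± 7.61, 55.1 ± 15.7 and 24.4 ± 2.61 CPM per kb (SD). In control the ranges of Hoxa9 and Hoxa5 overlapped, with Hoxa9 higher in 3 of 4 libraries, and in NA10hd and NV they did not. Hoxa7 came next at 10.5 ± 4.58, 24.4 ± 8.89 and 10.7 ± 0.360 CPM per kb (SD), and Hoxa10 at 10.4 ± 0.856, 14.9 ± 5.41 and 7.78 ± 2.13 CPM per kb (SD). In control neither was above the other beyond its spread, and with the longest transcript as length Hoxa10 came before Hoxa7 there. Hoxa2 and Hoxa4 overlapped in every genotype and changed places between control and the other 2, at 5.18 ± 1.46 and 3.76 ± 2.0 CPM per kb (SD) in control. Hoxa3 was lower at 1.09 ± 0.110 CPM per kb (SD) in control, Hoxa6 lower still, and Hoxa11 had no counts. The levels did not follow the order of the genes along the chromosome, since Hoxa6, with hardly any counts, lies between Hoxa5 and Hoxa7.

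**Figure D1:**
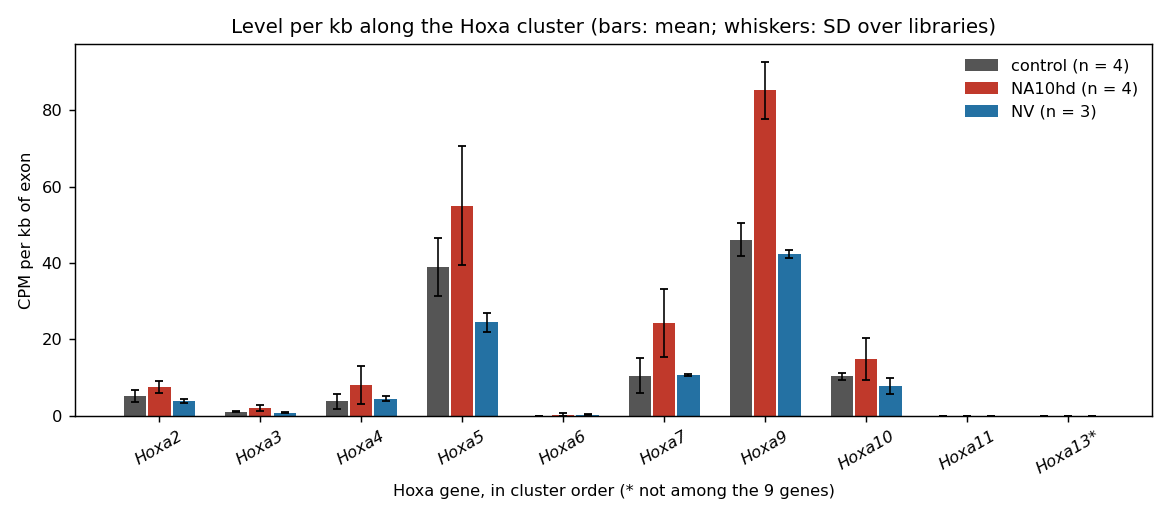
Mean level in CPM per kb of merged exon (y axis) of each Hoxa gene in the order of the cluster (x axis) for control, NA10hd and NV libraries, with whiskers for the SD; Hoxa13 is a neighbour outside the 9 genes. Hoxa9 and Hoxa5 stand highest in each genotype, and Hoxa6, Hoxa11 and Hoxa13 are at or near 0.

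Hoxa9 and Hoxa10 are the posterior members with counts. Hoxa9 (ENSMUSG00000038227), a factor of HSC self-renewal, stood at 176, 141, 162 and 166 CPM in control replicates 1 to 4, at 289, 325, 265 and 311 CPM in NA10hd replicates 1 to 4 and at 144, 150.2 and 149.9 CPM in NV replicates 1 to 3. All NA10hd libraries lay above all others, with a gap from 176 to 265 CPM, and NV lay within the range of control. Control averaged 161 ± 14.8 CPM (SD, n = 4), NA10hd averaged 297 ± 26.3 CPM (SD, n = 4) and NV averaged 148 ± 3.47 CPM (SD, n = 3). Against NV the log2 fold change of NA10hd was 1.0 (standard error 0.15, 95% CI 0.67 to 1.33, edgeR adjusted p = 0.00413), past the threshold. Against control it was 0.89 (standard error 0.14, 95% CI 0.58 to 1.20, edgeR adjusted p = 0.0633), which missed the threshold, while DESeq2 gave an adjusted p of 6.92e-07. Over the 17 alternative fits its adjusted p in NA10hd against control ran from 6.92e-07 to 0.989 and the gene passed in 3, with a log2 fold change between 0.78 and 0.93. NV against control gave -0.13 (standard error 0.12, 95% CI -0.38 to 0.13, edgeR adjusted p = 0.621), an interval whose lower end is a fall of less than 1.5-fold. The RNA RP23-329P9.11, which shares 198 exon bases with Hoxa9 on the same strand, had 3.74 ± 0.956 CPM (SD, n = 4) in control, and how the counting treated reads on shared bases is not given in the sources used here.

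Hoxa10 (ENSMUSG00000000938), the mouse gene that corresponds to the HOXA10 of the fusion, stood at 39.0, 35.6, 43.4 and 41.0 CPM in control, at 56.9, 60.7, 80.7 and 30.2 CPM in NA10hd and at 37.2, 21.0 and 31.4 CPM in NV. NA10hd replicates 1 to 3 lay above all control and NV libraries, and NA10hd replicate 4, the library that stood apart, lay below all control libraries. The log2 fold change was 0.53 (standard error 0.27, edgeR adjusted p = 0.459) in NA10hd against control, -0.42 (standard error 0.21, edgeR adjusted p = 0.317) in NV against control and 0.93 (standard error 0.34, edgeR adjusted p = 0.146) between NA10hd and NV. Without NA10hd replicate 4 the last became 1.15 with edgeR adjusted p = 0.0341, past the threshold, and the first 0.74 with edgeR adjusted p = 0.218. Hoxa11 (ENSMUSG00000038210), a gene of limb and kidney development, had 0 counts in all 11 libraries, which allows up to 0.0836 CPM over the control libraries, 0.0745 CPM over NA10hd and 0.0820 CPM over NV, where a limit is the level that 3 counts would give and covers counting error alone.

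Hoxa5 and Hoxa7 are the central members with appreciable counts. Hoxa5 (ENSMUSG00000038253), a factor of lung and skeletal patterning that is also expressed in early blood progenitors, stood at 65.2, 66.2, 94.5 and 66.3 CPM in control, at 139, 86.6, 73.3 and 114 CPM in NA10hd and at 51.0, 41.3 and 45.3 CPM in NV. The 3 NV libraries lay below all others, and NA10hd overlapped control through control replicate 3. Control averaged 73.1 ± 14.3 CPM (SD, n = 4), NA10hd averaged 103 ± 29.4 CPM (SD, n = 4) and NV averaged 45.9 ± 4.89 CPM (SD, n = 3). NA10hd exceeded NV by a log2 fold change of 1.16 (standard error 0.24, 95% CI 0.63 to 1.69, edgeR adjusted p = 0.0212), past the threshold, and this call was lost without any 1 of the NV libraries (edgeR adjusted p = 0.0756, 0.131 and 0.126 without NV replicates 1, 2 and 3). NV against control gave a log2 fold change of -0.68 (standard error 0.18, 95% CI -1.07 to -0.29, edgeR adjusted p = 0.0468), past the threshold. Without any 1 of the 7 libraries the log2 fold change ran from -0.77 to -0.53 and missed the threshold, and among libraries of one sex mix it was -0.81 (edgeR adjusted p = 0.0870). NA10hd against control gave 0.50 (standard error 0.22, edgeR adjusted p = 0.398).

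Hoxa7 (ENSMUSG00000038236), another target of MLL complexes, stood at 43.1, 16.0, 21.8 and 39.4 CPM in control, at 62.8, 62.0, 107 and 48.7 CPM in NA10hd and at 29.9, 30.3 and 31.9 CPM in NV. All NA10hd libraries lay above all others, and control was split. Control replicates 1 and 4, which had no Xist counts, lay above all NV libraries, and replicates 2 and 3, which had Xist counts, below them. The same split was one of depth, with totals of 5464815 and 7190197 in replicates 1 and 4 against 10639180 and 12610189 in replicates 2 and 3. The part of depth was not tested. The log2 fold change was 1.24 (standard error 0.33, edgeR adjusted p = 0.228) in NA10hd against control, where DESeq2 gave an adjusted p of 0.0349, and 1.19 (standard error 0.28, edgeR adjusted p = 0.0373) between NA10hd and NV, past the threshold. The latter call was lost without any 1 of the NV libraries or without NA10hd replicate 3 (edgeR adjusted p up to 0.168). Among libraries of one sex mix, NA10hd against control gave 0.91 (edgeR adjusted p = 0.989) and NV against control 0.69 (edgeR adjusted p = 0.205), against 0.04 (standard error 0.31, edgeR adjusted p = 0.970) with all libraries. The part of the sex mix in these values was not tested beyond this. The antisense RNA 2700086A05Rik overlaps 586 exon bases of Hoxa7, and since the library kit does not mark strand their reads there cannot be told apart. Its own level was 0.955 CPM in control, 1.61 CPM in NA10hd and 1.55 CPM in NV (means over libraries).

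Hoxa6 (ENSMUSG00000043219), which lies between Hoxa5 and Hoxa7, was close to absent from control HSC and low in both mutants. It had 1 count over the 4 control libraries, in replicate 2, 27 counts over NA10hd and 20 over NV. The NA10hd libraries held 0.492, 1.59, 0.259 and 0 CPM and the NV libraries 0.318, 0.541 and 0.773 CPM. Counts were present in 3 of 4 NA10hd and in 3 of 3 NV libraries, and every NV library exceeded every control library. The ratio of pooled counts, scaled to the totals, was 24.1 for NA10hd to control (95% interval 3.97 to 986), 19.6 for NV to control (3.14 to 813) and 1.23 for NA10hd to NV (0.663 to 2.31). Replicate 2 held 20 of the 27 NA10hd counts, and without it the ratios of NA10hd were 8.95 to control and 0.456 to NV. Without control replicate 3 the ratios to control were 15.6 for NA10hd and 12.7 for NV, and without control replicate 2 no control count was left. The exact intervals treat reads as independent and cover counting error only, and the gene did not pass the filter on low counts in any comparison. Fitted with no filter it was not called, with edgeR adjusted p = 0.419 in NA10hd against control, 0.254 in NV against control and 0.983 in NA10hd against NV.

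The anterior members were the lowest per kb of those tested. Hoxa2 (ENSMUSG00000014704), a factor of hindbrain and branchial arch patterning, stood at 10.2, 9.0, 14.4 and 16.5 CPM in control, at 22.5, 16.5, 19.9 and 13.9 CPM in NA10hd and at 10.7, 8.32 and 9.47 CPM in NV. NA10hd lay above NV throughout and overlapped control. The log2 fold change was 0.54 (standard error 0.34, edgeR adjusted p = 0.556) in NA10hd against control, -0.41 (standard error 0.31, edgeR adjusted p = 0.534) in NV against control and 0.93 (standard error 0.37, edgeR adjusted p = 0.187) between NA10hd and NV, where DESeq2 passed it with an adjusted p of 0.0430. Hoxa3 (ENSMUSG00000079560), needed for thymus and parathyroid development, stood at 6.26, 7.01, 7.49 and 7.94 CPM in control, at 10.6, 15.9, 18.2 and 8.09 CPM in NA10hd and at 4.85, 6.23 and 5.12 CPM in NV. The 3 genotypes did not overlap for Hoxa3, with NV lowest and NA10hd highest, though both gaps were small, from 6.23 CPM in NV replicate 2 to 6.26 CPM in control replicate 1 and from 7.94 CPM in control replicate 4 to 8.09 CPM in NA10hd replicate 4. Its log2 fold change was 0.89 (standard error 0.41, edgeR adjusted p = 0.413) in NA10hd against control, -0.41 (standard error 0.35, edgeR adjusted p = 0.583) in NV against control and 1.29 (standard error 0.48, edgeR adjusted p = 0.159) between NA10hd and NV, with a DESeq2 adjusted p of 0.0333 for the last. Of its merged exon bases 53.5% are shared with other rows, among them its second identifier, which had 0 counts in every library.

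Hoxa4 (ENSMUSG00000000942), an anterior factor with no exon bases shared with another gene, had the widest spread relative to its mean of the tested members in control and in NA10hd. It stood at 2.50, 5.40, 5.82 and 10.2 CPM in control, at 14.5, 6.60, 7.0 and 23.6 CPM in NA10hd and at 6.05, 7.24 and 8.31 CPM in NV. NA10hd replicates 1 and 4 were high, NA10hd replicates 2 and 3 lay within the control range, and all 3 ranges overlapped. The log2 fold change was 1.10 (standard error 0.55, edgeR adjusted p = 0.459) in NA10hd against control, 0.25 (standard error 0.45, edgeR adjusted p = 0.821) in NV against control and 0.82 (standard error 0.54, edgeR adjusted p = 0.452) between NA10hd and NV. Without NA10hd replicate 4 the first became 0.64 and the last 0.37. NA10hd replicate 4 was thus the highest of its group for Hoxa4 and the lowest for Hoxa2, Hoxa3, Hoxa7 and Hoxa10.

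**Figure D2:**
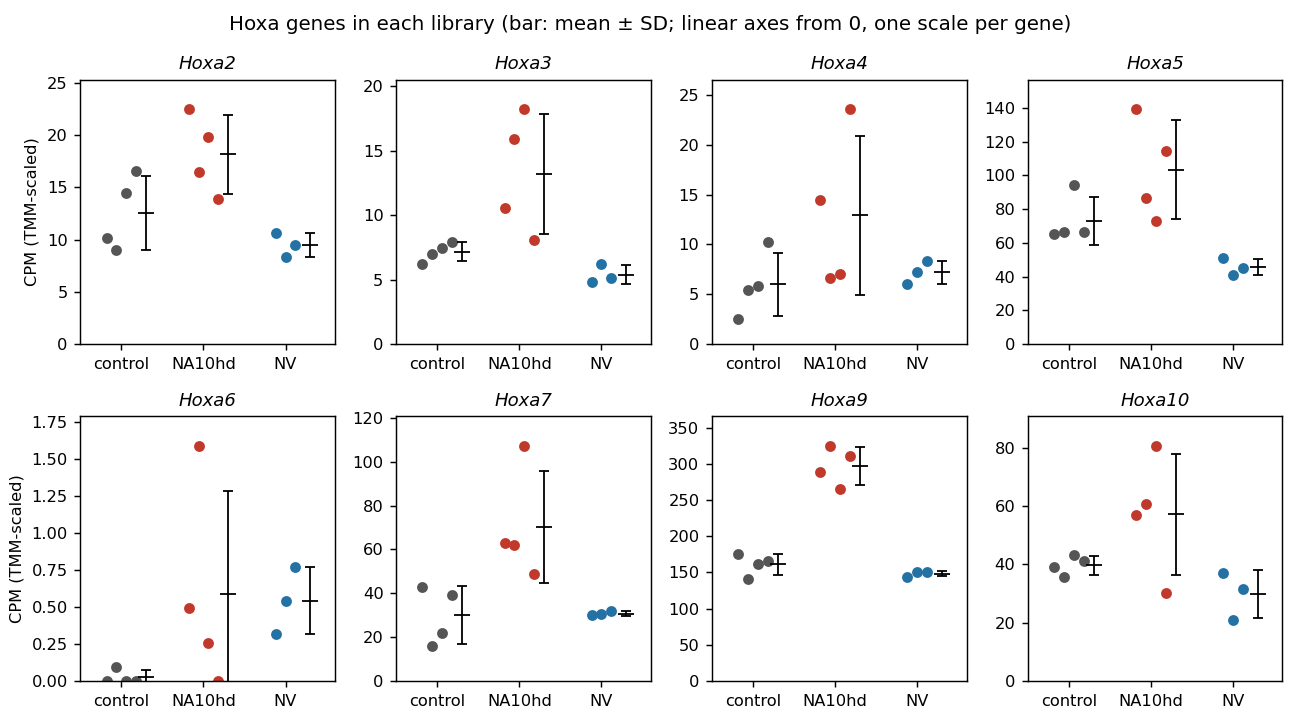
Level in CPM (y axis, linear from 0, a scale of its own for each gene) of the 8 Hoxa genes with counts in each control, NA10hd and NV library, with the mean and SD of each group beside the points (whiskers end at 0). NA10hd points lie above all others for Hoxa3, Hoxa7 and Hoxa9, and the NV points lie below all others for Hoxa3 and Hoxa5.

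The first comparison asks what the fusion changes in HSC. All 7 tested members (Hoxa2, Hoxa3, Hoxa4, Hoxa5, Hoxa7, Hoxa9 and Hoxa10) had a higher fitted level in NA10hd than in control, with log2 fold changes from 0.50 for Hoxa5 to 1.24 for Hoxa7 and a median of 0.89, against a median of 0.02 over the 13060 genes tested. Of all tested genes 51.5% had a log2 fold change above 0. A gene was called at an edgeR adjusted p under 0.05 and a fold above 1.5, and 0 of the 7 were called, where 1 gene was called in all (0.00766%). At an unadjusted p under 0.05 from edgeR, 4 members (Hoxa3, Hoxa5, Hoxa7 and Hoxa9) were higher, beside 6.62% of all genes. The 4 NA10hd libraries lay above the 4 control libraries for 3 members (Hoxa3, Hoxa7 and Hoxa9), beside 3.89% of all genes. DESeq2, the tool named in the study's methods, called Hoxa7 and Hoxa9, beside 1.99% of its tested genes, and limma-voom called no member, beside 0.0153%.

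The second comparison asks what oncogenic Nras changes. Of the 7 members 5 had a lower fitted level in NV than in control and Hoxa4 and Hoxa7 a higher one, with a median log2 fold change of -0.41 against -0.01 over the 13462 genes tested, of which 48.6% were above 0. The range was from -0.68 for Hoxa5 to 0.25 for Hoxa4. Hoxa5 fell, 1 of 7 members called by edgeR, beside 4.76% of all genes called and 2.21% called lower. The NV libraries lay below all control libraries for 2 members (Hoxa3 and Hoxa5), beside 9.37% of all genes. DESeq2 and limma-voom each called Hoxa5 alone among the members (adjusted p = 0.00657 and 0.0352), beside 6.98% and 4.81% of their tested genes. The edgeR call of Hoxa5 was lost without any 1 of the 7 libraries (adjusted p = 0.0527 to 0.182), with all groups in one fit (0.215), with the replicate block (0.0940) and among libraries of one sex mix (0.0870). Hoxa7 took a log2 fold change below 0 without control replicate 2 or 3, the 2 libraries in which it was lowest.

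The last comparison sets the mutants against each other. Hoxa5, Hoxa7 and Hoxa9 were higher in NA10hd than in NV, 3 of 7 members called by edgeR, beside 5.09% of 13461 genes called and 2.30% called higher. All 7 members had a higher fitted level in NA10hd, from 0.82 for Hoxa4 to 1.29 for Hoxa3 with a median log2 fold change of 1.0 against 0.01 for all genes, of which 50.8% were above 0. Every member but Hoxa4 was higher in NA10hd at an unadjusted p under 0.05 from edgeR, 6 of 7 beside 10.2% of all genes. NA10hd lay above NV in every library for 5 members (Hoxa2, Hoxa3, Hoxa5, Hoxa7 and Hoxa9), beside 9.63% of all genes. DESeq2 called those 5 members, beside 10.8% of its tested genes. Hoxa9 was called in all 15 alternative fits, with adjusted p at most 0.0459. NA10hd enters the first and last comparisons and control the first and second, so the 3 sets of values are not independent. With no sex mix in common, the genotype and the mix cannot be told apart in the last.

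**Figure D3:**
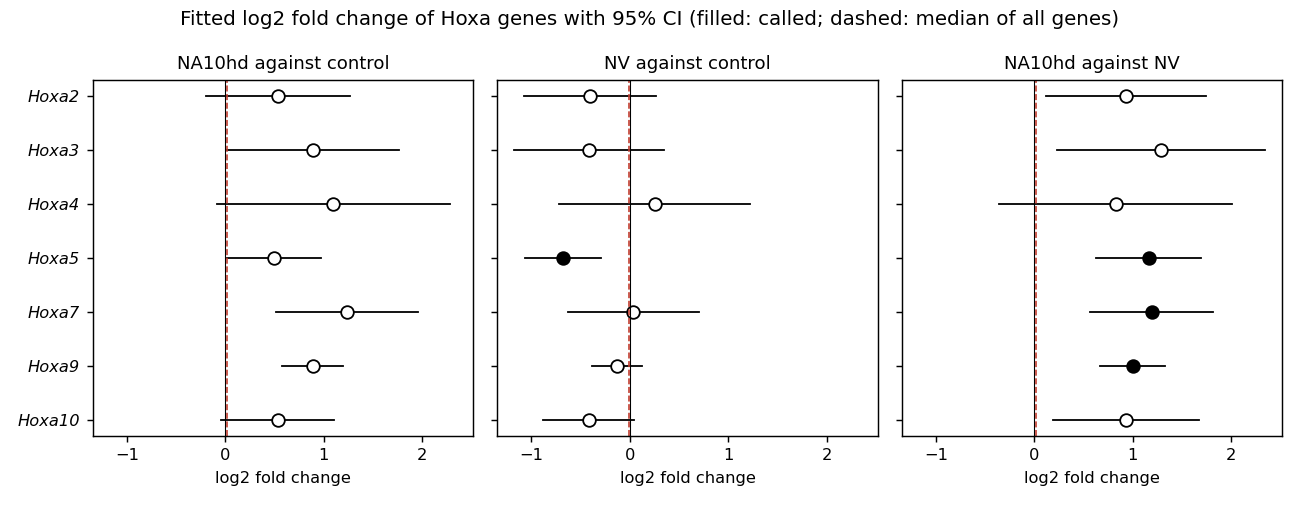
Fitted log2 fold change (x axis) with its 95% confidence interval for the 7 tested Hoxa genes in each comparison; filled points passed the threshold and the dashed line is the median of all tested genes. Points lie above 0 for all 7 genes in NA10hd against control and against NV, and on both sides of 0 in NV against control, where Hoxa5 is the filled point.

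Hoxa9 gave the largest part of the Hoxa counts in every library. Hoxa9 took 49.0% ± 2.28 (SD, n = 4) of them in control, 52.0% ± 5.35 (SD, n = 4) in NA10hd and 53.5% ± 2.98 (SD, n = 3) in NV. Hoxa5 took 22.2% ± 3.87, 18.0% ± 4.90 and 16.5% ± 1.26 (SD). For Hoxa5 every control library was above every NV library, and the other ranges of these shares overlapped. Single libraries departed from the common makeup: in NA10hd replicate 3 Hoxa7 took 18.8%, against at most 12.6% in the other 10 libraries, and in NA10hd replicate 4 Hoxa10 took 5.50%, against at least 7.94% elsewhere. A library high in one member was not high in all.

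**Figure D4:**
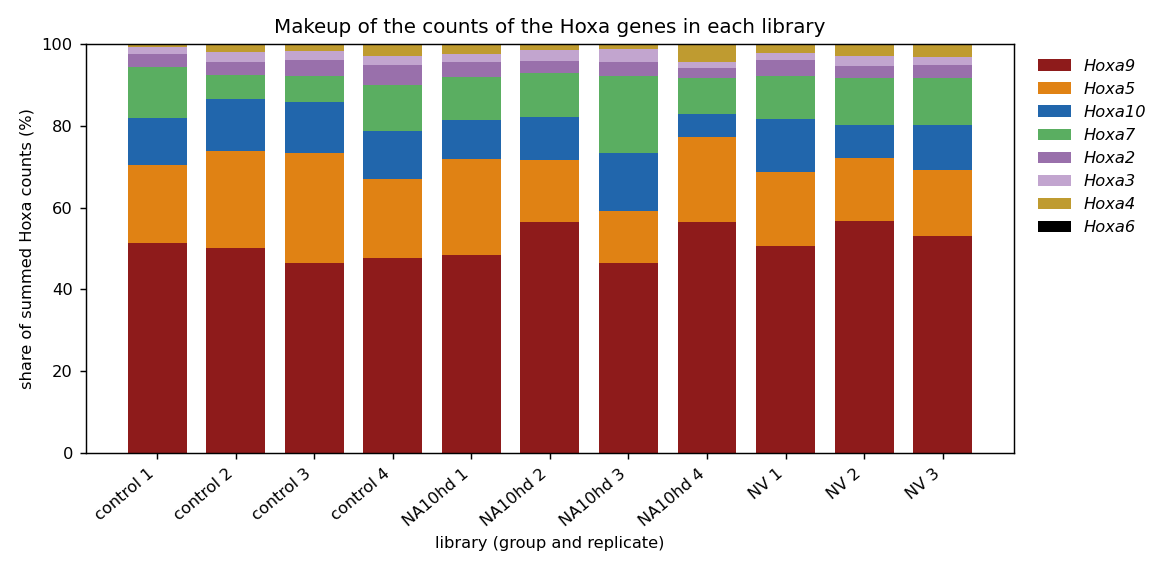
Share of the summed Hoxa counts (y axis, percent) taken by each gene in each of the 11 libraries (x axis). Hoxa9 is the largest part of every bar, between 46.4% and 56.6%, and the Hoxa7 part is largest in NA10hd replicate 3.

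Across the 11 libraries, log2 CPM of the 7 tested members correlated with each other in 20 of 21 pairs above 0, with a median Pearson r of 0.66, a lowest of -0.06 for Hoxa4 with Hoxa10 and a highest of 0.81 for Hoxa3 with Hoxa10. After the genotype means were taken out, 11 of 21 pairs were above 0, with a median of 0.12. The 11 libraries differ in genotype and in depth, so these values are a description. The genes outside the cluster whose levels were most like those of a member over the 11 libraries, among 14001 compared, were Gm13889 (r = 0.956), Sema4b (0.942) and Fam113b (0.941) for Hoxa9. They were Glul (0.971), Tead2 (0.961) and Jund (0.953) for Hoxa5, Daglb (0.967), Palm (0.959) and Foxp1 (0.928) for Hoxa7, and Enpp4 (0.952), Lmbrd1 (0.929) and Acbd4 (0.929) for Hoxa10. Gm13889 followed Hoxa9 between genotypes and not within them, with r = 0.165 once the genotype means were taken out, while Glul kept 0.906 with Hoxa5.

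Between the genes Skap2 and Hibadh, which flank the cluster, 29 rows of the table lie, of which 19 are no members, and 10 of these had counts. Hoxa13 and Evx1, which lie beyond Hoxa11, had 0 counts in every library, as did the row of Mir196b, whose 85 bases all lie within Hoxa9. The one neighbour called was the pseudogene Gm8129, higher in NA10hd than in NV by 2.12 (standard error 0.50, edgeR adjusted p = 0.0360) and uncertain, since reads of a pseudogene can be shared with copies elsewhere.

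Over all tested genes, 11.9%, 19.5% and 19.5% had an unadjusted p under 0.05 from edgeR in NA10hd against control, NV against control and NA10hd against NV, and DESeq2 called 1.99%, 6.98% and 10.8%, shares against which the lists that follow are to be read. With edgeR's threshold 0.00766%, 4.76% and 5.09% of all tested genes were called, beside 0, 3 and 1 of 21 genes of the MLL list and 0, 3 and 4 of 24 Polycomb genes. Of 8 tested cofactors, PBX, MEIS and related partners, none was called by edgeR in any comparison, while at an unadjusted p under 0.05 there were 1, 2 and 4 in these comparisons, and DESeq2 called 0, 2 and 3. Meis1, which forms complexes with HOXA9, stood at 267 ± 18.9 CPM in control, 286 ± 68.1 CPM in NA10hd and 291 ± 11.3 CPM in NV (SD). Of 21 tested members of MLL complexes and of the elongation machinery that acts with them, Mllt3, a part of the complex that keeps transcription of MLL targets going, fell in NV, with a log2 fold change of -0.74 (standard error 0.14, edgeR adjusted p = 0.0101). It was higher in NA10hd than in NV by 1.18 (standard error 0.15, edgeR adjusted p = 0.00180). Dot1l, a histone methyltransferase, and Brpf1 rose in NV (log2 fold change 0.70 and 0.93, edgeR adjusted p = 0.0271 and 0.0315). Of 24 Polycomb genes, Ezh2, a catalytic subunit of Polycomb complexes, rose in NV by 0.78 (standard error 0.14, edgeR adjusted p = 0.00685), and Cbx6 and Bmi1 fell there (log2 fold change -0.70 and -0.59, edgeR adjusted p = 0.0260 and 0.0477). Ezh2 was lower in NA10hd than in NV, at -1.52 (log2 fold change, standard error 0.23, edgeR adjusted p = 0.00428). Ezh1, Cbx6 and Cbx7 were higher in NA10hd (log2 fold change 1.21, 1.13 and 1.04, edgeR adjusted p = 0.00286, 0.0407 and 0.0375). The median log2 fold change was 0.05 for the MLL list and 0.02 for the Polycomb list in NV against control, and -0.14 and -0.02 between NA10hd and NV. None of the MLL or Polycomb genes was called by edgeR in NA10hd against control, where DESeq2 called 0 and 1 and an unadjusted p under 0.05 was found for 4 and 6.

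Of 24 tested genes known as targets of HOXA9 or HOXA10, none was called by edgeR in NA10hd against control, where DESeq2 called 2, 4 were at an unadjusted p under 0.05 and the median log2 fold change was 0.18, beside 1.99% and 11.9% of all tested genes. In NV against control Id2, Erg, Pim1 and Prdm16 fell and Cdk6, a cell cycle kinase, rose. Their log2 fold changes were -1.42, -0.77, -1.71, -1.0 and 1.80 (edgeR adjusted p at most 0.0441). With Igf1 counted, edgeR called 6 of 24 there, beside 4.76% of all genes. Between NA10hd and NV, Erg, Pim1 and Prdm16 were higher and Bcl2 and Cdk6 lower in NA10hd. Their log2 fold changes were 0.96, 2.75, 1.18, -1.24 and -2.10 (edgeR adjusted p at most 0.0359). With Igf1 counted, this was also 6 of 24, beside 5.09% of all genes. Igf1 had 50 counts over the NV libraries (0.159 to 2.03 CPM) and passed the filter through the other groups, so nothing is drawn from its calls against NV. It stood at 32.3 ± 15.0 CPM in control, 89.4 ± 31.7 CPM in NA10hd and 1.34 ± 1.03 CPM in NV (SD). Of 28 genes of the other Hox clusters 12 had counts, and the 6 tested were all fitted higher in NA10hd than in control (median log2 fold change 0.98, none called by edgeR, 2 at an unadjusted p under 0.05 and 0 by DESeq2). Control libraries summed to 17.9 to 31.8 CPM, NA10hd libraries to 37.1 to 59.1 CPM and NV libraries to 9.28 to 13.0 CPM. Hoxb9 had 1 count over the NV libraries and passed the filter through the other groups, so nothing is drawn from its calls against NV; it had 4.88 ± 1.97 CPM in NA10hd and 2.94 ± 2.81 CPM in control (SD). Hoxb5 was called higher in NA10hd than in NV and had 23.7 ± 2.23 CPM in NA10hd against 6.18 ± 1.33 CPM in NV (SD), a log2 fold change of 1.93 (standard error 0.36, edgeR adjusted p = 0.0120). Of the 2 genes of each list with the highest CPM (among them Meis1, Mllt3, Psip1, Rbbp7, Bap1, Lmo2, Etv6, Hoxb5 and Hoxb7), edgeR called Mllt3 and Hoxb5 alone, in the comparisons given.

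The summed level of 12 markers of endothelial cells, several of which HSC also express, was highest in NA10hd and lowest in NV, as was that of the Hoxa genes. All 12 had counts, where control libraries summed to 566 to 609.6 CPM, NA10hd libraries to 626 to 786 CPM and NV libraries to 427 to 494 CPM, with no overlap between the genotypes. Vwf (220.1, 251 and 124 CPM on average in control, NA10hd and NV), Emcn (94.9, 104 and 34.9 CPM), Kdr (16.9, 26.6 and 8.39 CPM) and Cldn5 (9.03, 31.8 and 0.694 CPM) had this order. Esam ran the other way (153, 143 and 184 CPM), and Egfl7 was higher in NA10hd and in NV than in control on average (72.1, 104 and 82.5 CPM). Cdh5, which defines endothelium, stood at 0.286 ± 0.414 CPM in control, 1.49 ± 2.94 CPM in NA10hd and 0 in NV (SD). Megakaryocyte markers overlapped between genotypes (1149.5 to 1340.0, 1236 to 1506 and 1038 to 1237 CPM), and multipotent progenitor markers were higher in NV (406 to 492 CPM) than in control (324 to 355 CPM) and NA10hd (283 to 369 CPM). Erythroid markers were also higher in NV, at 88.1 to 135 CPM against 58.3 to 75.1 CPM in control and 55.6 to 76.1 CPM in NA10hd, with Klf1, an erythroid transcription factor, at 17.6 CPM on average in NV, 3.91 CPM in control and 0.885 CPM in NA10hd. Mesenchymal stromal markers were lower in NV (3.96 to 10.02 CPM) than in NA10hd (12.9 to 26.1 CPM), and control overlapped both (8.77 to 19.8 CPM). Of the myeloid markers, Prtn3 averaged 338, 451 and 267 CPM and Lyz2 493, 468 and 507 CPM in control, NA10hd and NV, in opposite orders, and Mpo, Elane and Ctsg were at or near 0. The part of these marker lists in the Hoxa values was not tested.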

How the data were processed

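HSC aliquots of 1000 cells from 4 control, 4 NA10hd and 3 NV samples were measured by RNA-Seq. The authors amplified full-length cDNA and prepared Nextera XT libraries. HISAT2 placed the reads on the build NCBIM37, featureCounts gave a number for each gene, and the deposited values are raw counts, not normalized. Tool versions, the annotation release and the handling of strand, of multiply mapped reads and of shared exon bases are not given in the sources used here, so overlapping genes can lose or share reads. Samples were grouped by their titles, and 3 columns of the table that matched no sample held no values and were left out.

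Symbols, exon lengths and homeoboxes came from GENCODE vM1 on NCBIM37, which paired 37205 of 37991 identifiers with a symbol, and the 250 bases before each start from RefSeq. The 9 genes were taken by symbol. Each comparison was fitted on its own libraries over the whole table with edgeR 4.0.16 (R 4.3.3), its quasi-likelihood test after TMM factors and its default low-count filter, and p-values were adjusted by Benjamini-Hochberg over all genes tested. The standard error was the log2 fold change divided by the square root of F. Alternatives were DESeq2 1.42.0, limma-voom 3.58.1, DESeq2 size factors, no filter, a replicate block, one fit of all groups, a minimum of 10 counts per library, no fold threshold, libraries of one sex mix and each library left out. The fits were tested on simulated counts. The genes named were the 9 members and their neighbours between Skap2 and Hibadh, the called and the 2 most counted genes of each list, the 3 genes most correlated with each of the 4 highest members, and Nras and Nup98. The Hoxa6 ratio with each library left out was added after the data were seen. Some of these genes and sequences are not reported here. Members and lists were chosen with earlier results of these data known. Figures were drawn with matplotlib 3.10.9.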

Additional observations from a re-analysis of the deposited data

Results flagged for a closer look

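Of 16 groups of 4 libraries examined, 1 for each member with counts in control and in NA10hd, 2 held a library far from the others, where chance gives about 1 in 20 for values without ties. Hoxa5 stood at 94.5 CPM in control replicate 3 while the nearest control library was at 66.3 CPM, and without that library the log2 fold change of NV against control was -0.53 (edgeR adjusted p = 0.0846). Hoxa6 stood at 0.0947 CPM in control replicate 2, which is 1 count, while the other 3 control libraries were at 0, so that any count in 1 library would have met the criterion and the chance rate does not apply.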

How the results depend on the processing

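In NA10hd against control, 1 gene of all was called, and 240 were with DESeq2, 2 with limma-voom, 8 with no filter, 8 with at least 10 counts in every library, 39 with all 3 groups in one fit, 0 with the replicate block and 0 among libraries of one sex mix. The members called went from 0 to 2 with DESeq2 (Hoxa7 and Hoxa9), 1 with the filter of 10 counts and 1 with all groups in one fit (Hoxa9 in both, adjusted p = 0.0378 and 0.0129 from edgeR). With 1 library left out, 0 to 5 genes were called, 5 without NA10hd replicate 4, and 0 to 0 members.

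In NV against control, 641 genes were called, and 1015 with DESeq2, 155 with all groups in one fit and 301 among libraries of one sex mix. The 1 member called, Hoxa5, was lost (0 called) with all groups in one fit, with the replicate block and among libraries of one mix (edgeR adjusted p = 0.215, 0.0940 and 0.0870). Without 1 library 263 to 643 genes were called, the fewest without NV replicate 3 or 2, and 0 to 0 members. The log2 fold change of Hoxa7, 0.04 with all libraries, ranged with 1 library left out from -0.18 (without control replicate 2) to 0.25 (without control replicate 1) and was -0.09 without control replicate 3. Under the other alternatives it lay between 0.03 and 0.69, the highest among libraries of one sex mix.

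In NA10hd against NV, 685 genes and 3 members were called, and 1495 genes and 5 members with DESeq2 and 1152 genes with all groups in one fit. Without 1 library 146 to 771 genes and 1 to 4 members were called, with 146, 153 and 229 genes and Hoxa9 as the 1 member without NV replicates 3, 2 and 1. No libraries of these genotypes shared a sex mix, so that alternative gave no value. The cause of these shifts was not tested.

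Replicate numbers did not pair the samples, since the deviations of same-numbered libraries correlated between -0.09 and 0.03. With the number as a block, 0, 432 and 581 genes were called in the 3 comparisons, and Hoxa10 was called between NA10hd and NV (log2 fold change 1.17, edgeR adjusted p = 0.0448). The medians over the tested members kept their direction under every alternative. Their value was 0.68 to 0.91 in NA10hd against control, -0.43 to -0.22 in NV against control and 0.96 to 1.12 in NA10hd against NV. Hoxa9 per kb of its longest transcript was 45.9 CPM in NV, against 42.4 CPM per kb of merged exon. Hoxa6 entered the fits with no filter and was not called there, and Hoxa11 had 0 counts in every library, so it could not be compared.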
